A study of Mus musculus with 8 samples.

Results

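The cells described here were the Lgr5-positive epithelial cells of the mouse colon. They were the barcodes of the single-cell library of the large intestine with at least 500 detected genes, at most 20% of their unique molecular identifiers (UMIs) from mitochondrial (mt-) genes, at least 2 UMIs of Lgr5 and at least 1 UMI of Epcam, an adhesion protein of epithelial cells. This rule selected 540 cells out of 5294 kept cells with an Epcam UMI, or 10.2% (exact 95% interval 9.4% to 11%), among 6188 kept cells and 8646 barcodes of that library. The whole series held 19539 cell barcodes. Lgr5 and Epcam chose the cells, so their values are given as descriptions only, and every other gene was compared with the 4754 remaining Epcam-positive cells of the same library.

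The study digested mouse small and large intestine and sorted live cells with added LGR5+ stem cells and CD31+ PDPN+ LYVE1+ lymphatic endothelial cells, so shares of cells describe the sorted mixture and not the tissue. Sorting used C57BL/6 mice and Lgr5-eGFP-ires-CreERT2 mice on a C57BL/6 background. In the reporter mice, green fluorescent protein is made from the Lgr5 locus. The sample label gives the strain of the colon library as C57BL/6 only, with no number, age or pooling of animals and no treatment, and which cells came from which genotype is not given. The other samples used here were 1 single-cell library of the small intestine, made the same way, and 2 Visium sections of large intestine from C57BL/6 mice, which were technical duplicates cut at 10 µm. With 1 library per tissue there was no replicate check, so no test was made and no p-value is given. Intervals cover counting error only, since cells of 1 library are not replicates, and a UMI count is a sum over sorted cells that share a library.

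Lgr5 is a receptor for R-spondins, secreted proteins that strengthen Wnt signalling by keeping Wnt receptors on the cell surface. In the intestine it marks the columnar stem cells at the crypt base, which divide and give rise to absorptive cells (enterocytes, called colonocytes in the colon) and to secretory cells such as goblet, enteroendocrine and tuft cells. The colon has no typical Paneth cells, and deep crypt secretory cells that make Reg4 lie beside its stem cells.

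The colon library held 142501907 UMIs and the small intestinal library 78482770. The Lgr5-positive colon cells held 17487706 UMIs, from 6059 to 101263 per cell with a median of 29644.5. The median in the other Epcam-positive cells was 24009.5. A median of 7.69% of UMIs came from mitochondrial genes in the Lgr5-positive cells and of 6.56% in the others. Only 25 barcodes occurred in both tissue libraries, and 0 of them belonged to an Lgr5-positive cell of either tissue. To compare shares of cells at 1 depth, each cell was thinned at random to 5000 UMIs, which left out 0 Lgr5-positive cells and 882 of the others.

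Lgr5 itself ranged from 2 to 13 UMIs per selected cell, with a median of 3, and 222 of the 540 cells held exactly 2. Outside the threshold, 411 Epcam-positive cells held 1 Lgr5 UMI and 4343 held 0. Among the 894 kept cells without Epcam, 4 held an Lgr5 UMI and 0 held 2 or more. The cells just outside the threshold lay close to those just inside it. Smoc2, a secreted matrix protein of the crypt base, stood at 101 CPM (the gene's UMI count scaled to the summed UMIs of the group of cells) in cells with 1 Lgr5 UMI and 122 CPM in cells with 2, against 32.2 CPM in cells with 0. Ascl2, a transcription factor of intestinal stem cells, stood at 59.0, 65.1 and 16.5 CPM in the same order. The cells with 1 Lgr5 UMI remained among the comparators.

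**Figure D1:**
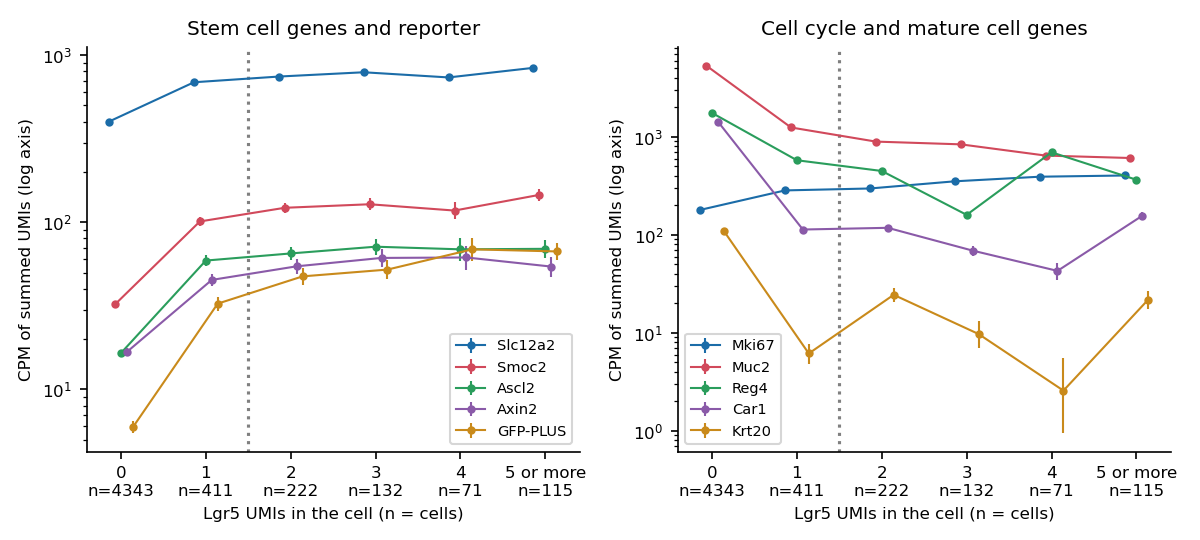
Expression of selected genes in Epcam-positive colon cells grouped by their number of Lgr5 UMIs (horizontal axis, 0 to 5 or more), as CPM of summed UMIs on a log axis, with exact 95% Poisson intervals that cover counting error only. Smoc2, Ascl2 and GFP-PLUS step up mainly between 0 and 1 Lgr5 UMI, and Muc2 steps down from 5363 CPM at 0 to 1251 CPM at 1.

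The feature called GFP-PLUS, read here from its name as the reporter, was not used by the rule and followed Lgr5. It gave 978 UMIs in the Lgr5-positive cells, with 0 to 13 UMIs per cell and a median of 1. At least 1 UMI was present in 369 of the 540 cells, or 68.3% (exact interval 64.2% to 72.2%), and in 558 of the 4754 others, or 11.7%. After thinning, the shares were 25.7% (22.1% to 29.6%) and 4.0% (3.41% to 4.67%). Free RNA is measured by cells that should lack the gene. The reporter was found in 0 of 258 cells with a Ptprc UMI (the leukocyte antigen CD45) and no Epcam UMI, which allows a share of up to 1.16% by the limit of 3 counts and of 1.42% by the exact interval. Those cells had a median of only 4125.5 UMIs, and after thinning it was found in 0 of the 112 that were deep enough, which allows up to 2.68% and 3.24% in the same order. By level, GFP-PLUS stood at 55.9 CPM in the Lgr5-positive cells and 8.91 CPM in the others, a log2 ratio of 2.65 (interval 2.52 to 2.78). Across the bins of Lgr5 UMIs it read 5.93 CPM at 0, 32.6 at 1, 47.4 at 2, 52.1 at 3, 68.8 at 4 and 66.9 at 5 or more, so that the cells outside the threshold with 1 UMI also carried the reporter. In the small intestinal library, the same rule gave 213 of 1871 Epcam-positive cells, and 48 of those 213, or 22.5%, held a GFP-PLUS UMI (8.92% after thinning). How many reporter mice went into each library is not given, so tissue, library and genotype mix cannot be told apart in that difference.

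Lgr5-positive cells with and without a reporter UMI differed by 2-fold at few genes. The 369 cells with GFP-PLUS had a median of 31892 UMIs and 102 CPM of Lgr5, and the 171 without it had 27362 UMIs and 109 CPM. Smoc2 stood at 133 and 119 CPM, and Slc12a2, a chloride cotransporter enriched at the crypt base, at 765 and 803 CPM. Of 7977 genes compared between these groups, 14 (0.176%) were at least 2-fold higher and 35 (0.439%) at least 2-fold lower in the cells with the reporter, the reporter itself left out. Genes past 2-fold included markers of other cells and immediate early genes: the globin Hbb-bs (3.77) and the matrix gene Dcn (2.53) were higher with the reporter, and the plasma cell gene Mzb1 (-2.82), Atf3 (-2.0) and Fos (-1.69) lower. Genes of absorptive and crypt cells were also among them: the bile acid binding protein gene Fabp6 stood at 108 against 7.20 CPM (3.91), Rdh1 at 14.2 against 6.44 CPM (1.14) and Igfbp4 at 16.1 against 7.96 CPM (1.01) with and without the reporter. Fabp6, Rdh1 and Igfbp4, and Mzb1, Atf3 and Ang4 among the lower ones, passed the level minimum only through the cells where they were high. Some goblet genes were lower with the reporter: Ang4 stood at 5.65 against 32.6 CPM (-2.53), Clca1 at 33.6 against 86.6 CPM (-1.37) and Spdef at 11.7 against 27.5 CPM (-1.23). Under 2-fold, Muc2 stood at 607 against 1193 CPM (-0.98), Spink4 had -0.79 and Zg16 -0.03, and the cycling genes Ube2c, Ccnb1, Birc5 and Top2a had 0.85, 0.75, 0.70 and 0.54. The shares of cells differed less for some of the genes past 2-fold. With and without the reporter, Dcn was found in 14.9% and 12.9% of cells, Mzb1 in 8.67% and 11.7%, Hbb-bs in 30.6% and 29.2%, and Fabp6 in 21.4% and 19.9%. Ascl2 was a little higher with the reporter (73.9 against 54.8 CPM, log2 ratio 0.43, 0.24 to 0.63). Hoxb13, a transcription factor of the distal hindgut, was lower with it (53.2 against 85.1 CPM, log2 ratio -0.68, -0.85 to -0.50). The cells without a reporter UMI were shallower, and the part of depth in these values was not tested.

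Genes known to mark intestinal stem cells were mostly higher in the Lgr5-positive cells. Genes were compared where the mean CPM of both groups was at least 10, and a difference of at least 2-fold (a log2 ratio of 1 or more, or of -1 or less) is what is counted below. Of 8002 genes compared, 140 (1.75%) were at least 2-fold higher and 390 (4.87%) at least 2-fold lower, and the median log2 ratio over all of them was 0.13. Of the 20 stem cell genes listed besides Lgr5, 15 passed the level minimum. Of these, 9 were at least 2-fold higher and 0 lower, with a median log2 ratio of 1.02. Ephb3, counted among the 9, passed the level minimum only through the Lgr5-positive cells. With every cell thinned, 7 of 14 were higher and 1 lower. The list was drawn up with these results in view, and its genes follow Lgr5 in the published marker sets, so its direction is not independent support.

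Among secreted and membrane proteins of the crypt base, Smoc2 was found in 91.9% of the Lgr5-positive cells, with 0 to 17 UMIs per cell and a median of 3, and in 35.9% of the others. Its level was 128 CPM against 39.9 CPM, a log2 ratio of 1.68 (1.61 to 1.76). After thinning, 46.1% of the Lgr5-positive cells, 15.6% of the others and 2.68% of the Ptprc-positive cells held a Smoc2 UMI. Slc12a2 was broad: it was found in 98.7% of the Lgr5-positive cells and 74.8% of the others, at 776 and 433 CPM, a log2 ratio of 0.84 (0.82 to 0.87) that stayed under 2-fold. Cd44, a hyaluronan receptor and Wnt target, stood at 156 against 65.9 CPM (log2 ratio 1.25). The receptor tyrosine kinase Ephb3, which positions cells along the crypt, had a log2 ratio of 1.13 and passed the level minimum only through the Lgr5-positive cells (15.7 against 7.15 CPM). Its relative Ephb2 had a ratio of 0.64. Lrig1, a brake on ErbB receptors, and Rgmb, a BMP co-receptor, both had a ratio of 1.02.

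Among regulators inside the cell, Ascl2 was found in 75.9% of the Lgr5-positive cells and 21.1% of the others, at 68.1 and 21.2 CPM (log2 ratio 1.68, 1.58 to 1.78). The cell cycle kinase Cdk6 stood at 139 against 56.4 CPM (1.30), and the Myc-responsive Cdca7 at 128 against 57.8 CPM (1.15). Sox9, a transcription factor of crypt progenitors, had a ratio of 0.63. Other genes used as stem cell markers were near level in summed UMIs. The Lgr5-positive cells were deeper than the others, so each share of cells is also given after thinning. Aqp4, a water channel, stood at 120 and 118 CPM but was found in 86.9% against 43.1% of cells, or 42.6% against 25.5% after thinning. Prom1, a membrane glycoprotein, had a ratio of 0.32 and was found in 90.2% against 58.9% of cells (36.9% against 28.3% after thinning). Igfbp4, which binds insulin-like growth factors, had a ratio of -0.29, which ranged from -1.62 to 1.42 over the other ways of processing. It was found in 22.4% against 11.5% of cells, and in 4.81% against 5.53% after thinning.

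Several markers of small intestinal stem cells were at or near 0 in the colon cells. Olfm4, a secreted glycoprotein, gave 8 UMIs in all 540 cells (0.457 CPM) against 4175 CPM in the 213 small intestinal Lgr5-positive cells, a log2 ratio of -13.2 (-14.4 to -12.2). Gkn3 gave 0 UMIs in the colon cells and 77.4 CPM in the small intestinal ones. Set against a floor of 3 UMIs over the colon cells, its log2 ratio was -8.82 or lower. Msi1, an RNA-binding protein, and Tnfrsf19, a TNF receptor family member, were present at low levels in the colon, with 62 and 60 UMIs, and their colon over small intestine ratios were -2.89 and -2.75.

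In the same comparison inside the small intestinal library, several of these genes had larger ratios. Of 7752 genes compared there, 657 (8.48%) were at least 2-fold higher and 666 (8.59%) lower in Lgr5-positive cells. Smoc2 had a ratio of 2.35 there (168 against 33.1 CPM), Axin2 2.55 (154 against 26.4 CPM) and Slc12a2 2.64. Ascl2 had 3.02 but, like Gkn3, Msi1 and Tnfrsf19, was under 10 CPM in the other small intestinal cells (8.39 CPM) and passed only through the Lgr5-positive ones, so no count over the list is given. The comparators differ between the tissues, and the difference between the ratios was not tested. Between the Lgr5-positive cells of the tissues themselves, Ascl2 was level (log2 ratio colon over small intestine 0.01, -0.15 to 0.16) and Smoc2 slightly lower in colon (-0.39, -0.49 to -0.29).

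Some Wnt target genes were higher in the Lgr5-positive cells. Of the 21 genes listed, 11 passed the level minimum, and 4 were at least 2-fold higher and 0 lower, with a median of 0.18, close to the median of all genes. All 4 were genes that Wnt signalling is known to switch on. Axin2, a negative feedback scaffold, stood at 57.0 against 19.9 CPM (log2 ratio 1.52, 1.41 to 1.62) and was found in 72.8% against 26.6% of cells. Rnf43, a ubiquitin ligase that removes Wnt receptors and is countered by R-spondin with Lgr5, stood at 58.0 against 24.2 CPM (1.26). The transcription factors Myc and Sp5 had ratios of 1.2 and 1.35, and Sp5 (16.6 against 6.55 CPM) passed the level minimum only through the Lgr5-positive cells. The cyclin genes Ccnd1 and Ccnd2 had ratios of 0.66 and 0.04. The R-spondin receptor Lgr4 had a ratio of 0.18, the co-receptor Lrp6 0.17, beta-catenin (Ctnnb1) 0.15, the frizzled receptor Fzd5 -0.10 and the nuclear partner Tcf7l2 -0.30. Under the level minimum, the receptor Fzd7 had a ratio of 1.14 and the co-receptor Lrp5 0.49.

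The promoters of Sp5 and Axin2 are shown because both genes are transcriptional targets of the pathway and both were at least 2-fold higher in these cells. They are the 250 bases before the RefSeq start site, 5′ to 3′ on the plus strand of build GRCm38.p6, at chr2:70474673-70474922 for Sp5 and chr11:108920099-108920348 for Axin2. Capitals mark a match to CTTTGAT or its reverse ATCAAAG, the core recognised by TCF/LEF factors.
Sp5: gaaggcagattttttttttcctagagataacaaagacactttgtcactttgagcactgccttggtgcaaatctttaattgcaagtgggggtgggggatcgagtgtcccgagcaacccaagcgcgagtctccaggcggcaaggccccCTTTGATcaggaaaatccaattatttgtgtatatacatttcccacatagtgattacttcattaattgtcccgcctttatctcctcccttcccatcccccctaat
Axin2: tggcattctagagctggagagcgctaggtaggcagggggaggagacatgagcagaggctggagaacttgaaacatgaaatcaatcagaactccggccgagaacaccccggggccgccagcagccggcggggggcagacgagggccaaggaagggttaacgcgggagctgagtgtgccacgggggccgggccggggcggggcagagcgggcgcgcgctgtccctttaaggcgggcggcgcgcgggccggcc
Sp5 held 1 match, which begins at base 147 of the printed sequence, and Axin2 held none. Of the 12 genes of the stem cell and Wnt lists that were at least 2-fold higher, 10 had a RefSeq window of 250 bases before to 50 after the start, and Sp5 was the 1 window of these 10 with a match, against 1225 of all 32851 windows (3.73%). A match is a description of the letters and not evidence of binding, and sites elsewhere were not examined.

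In the Notch pathway, which keeps crypt cells from becoming secretory, the receptor Notch1 stood at 47.1 against 19.5 CPM (log2 ratio 1.27), its target Hes1 had a ratio of 0.82 and the feedback gene Nrarp 0.70. Atoh1, the transcription factor that drives secretory fate and is held down by Notch, was lower, at 28.8 against 128 CPM (-2.16). Among BMP pathway genes, 0 of 6 compared passed 2-fold. The receptor Bmpr1a had a ratio of 0.42, and the target genes Id1 and Id3 had -0.66 and -0.96.

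Most cell cycle genes compared stayed under 2-fold. Of 10 S phase genes, 0 reached 2-fold, with a median log2 ratio of 0.66, and the replication helicase subunits Mcm5 and Mcm6 had 0.80 and 0.78. Of 10 G2/M genes, 2 reached it, Top2a (464 against 226 CPM, 1.04) and Cenpf (255 against 118 CPM, 1.12), and the median was 0.83. With comparators weighted to the depths of the Lgr5-positive cells, 0 of 10 reached it (median 0.57), and with every cell thinned 4 did. Mki67 stood at 349 against 192 CPM (0.86), with 0 to 108 UMIs per cell and a median of 4. At least 1 Mki67 UMI was found in 73.7% of the Lgr5-positive cells, but its level was uneven among them. In the groups A to F described below, it stood at 677, 597 and 504 CPM in A, C and E. In B, D and F it stood at 73.7, 72.9 and 113 CPM. Of the Lgr5-positive cells, 38.7% fell in clusters of cycling-like cells.

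Receptors for signals from the surrounding tissue went in both directions, and those compared stayed under 2-fold. Of 9 compared, 0 reached 2-fold, and their median was 0.03. The integrin subunit Itgb1 stood at 91.1 CPM (log2 ratio 0.03), the growth factor receptors Igf1r, Erbb3 and Egfr had ratios of 0.79, 0.40 and -0.36. The series is titled for a link between lymphatics and stem cells. Of the receptors of the lymphatic ligand reelin, Lrp8 and Vldlr were low: Lrp8 stood at 7.15 CPM and Vldlr at 7.61 CPM (-0.71). The adaptor Dab1 gave 12 UMIs (0.686 CPM).

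By a rule on size alone, the 12 genes with the highest ratio held few of the usual markers. After GFP-PLUS, the best measured was Cps1, which makes carbamoyl phosphate in the urea cycle, at 57.4 against 12.4 CPM (log2 ratio 2.21) with 0 to 25 UMIs per cell. Nr2e3, a nuclear receptor, stood at 27.6 against 6.86 CPM (2.01). Scn2b, a sodium channel subunit, stood at 20.5 against 4.94 CPM (2.05). The retinol dehydrogenase gene Rdh1 (11.8 against 2.85 CPM, 2.06) and Agr3, a disulfide isomerase relative (12.4 against 3.33 CPM, 1.89), were lower in level. The remaining genes were sparse: the synaptic scaffold gene Dlgap1 (5.09 CPM, 2.74), the protease gene Adamts16 (4.12 CPM, 2.67), the kinesin gene Kif26b (4.12 CPM, 2.26), the glutamate transporter Slc1a2 (7.78 CPM, 1.90), Msi1 (2.12) and Xkr5 (2.05). None of the 12 had a UMI in the 112 thinned Ptprc-positive cells, which allows a share of up to 3.24% by the exact interval. Thinned Lgr5-positive cells themselves held Dlgap1 and Adamts16 in only 2.04%, Kif26b in 2.41% and Msi1 and Xkr5 in 1.67%. For these sparse genes the 0 cannot tell expression from free RNA. All 12 also had a log2 ratio over 1 in the small intestine, several of them on few UMIs. Adamts16 stood there at 4.56 (11 against 3 UMIs, 2.64 to 7.04) and Rdh1 at 4.35 (19 against 6 UMIs, 2.97 to 5.96). Slc1a2 stood at 4.48 (83 against 24 UMIs) and Cps1 at 1.39. All except Cps1 were under 10 CPM in the other small intestinal cells.

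**Figure D2:**
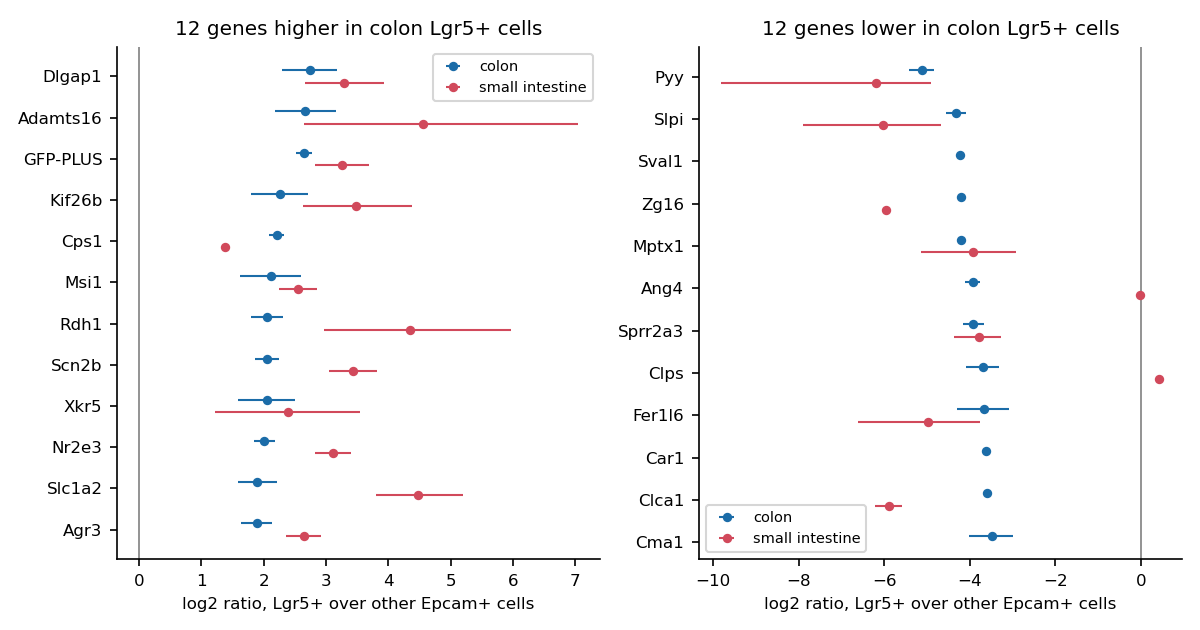
The 12 genes of highest ratio (left) and the 12 of lowest ratio (right), on a log2 scale, between Lgr5-positive and other Epcam-positive colon cells, each beside its ratio in the small intestine where one could be computed, with exact 95% intervals for counting error. All 12 of the higher genes lie above 1 in both tissues, while Ang4 and Clps are near 0 in the small intestine (-0.02 and 0.42).

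The 12 genes with the lowest ratio included products of goblet, enteroendocrine and absorptive cells. The mucus lectin Zg16 stood at 161 against 2979 CPM (log2 ratio -4.21), the goblet protein Clca1 at 49.6 against 595 CPM (-3.59), the gut hormone Pyy at 6.00 against 209 CPM (-5.12) and the colonocyte carbonic anhydrase Car1 at 105 against 1285 CPM (-3.61). The protease inhibitor Slpi stood at 8.12 against 162 CPM (-4.32), the pentraxin Mptx1 at 370 against 6804 CPM (-4.20), the angiogenin Ang4 at 13.8 against 210 CPM (-3.93) and Sval1 at 72.5 against 1359 CPM (-4.23). The others were Sprr2a3 (-3.91), Clps (-3.68), Fer1l6 (-3.66) and Cma1 (-3.49). Some of what remained was at the level of free RNA: after thinning, Zg16 was found in 35.4% of the Lgr5-positive cells and 53.6% of the Ptprc-positive cells, and Mptx1 in 56.9% and 75%. The share was also below that of the Ptprc-positive cells for Sval1 (16.9% and 25.9%), Clca1 (7.96% and 17.9%), Car1 (20.4% and 22.3%), Slpi, Pyy and Ang4. It was above it for Sprr2a3, Clps, Fer1l6 and Cma1. For the genes below it, a UMI in an Lgr5-positive cell is not read as expression.

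Genes of goblet, deep crypt secretory and absorptive cells were mostly lower. All 8 goblet genes were at least 2-fold lower, with a median log2 ratio of -2.72, led in level by Muc2, the main mucin (784 against 4902 CPM, -2.65). Thinned to 1 depth, Muc2 was found in 54.1% of the Lgr5-positive cells and 66.1% of the Ptprc-positive cells. All 6 deep crypt secretory genes were lower (median -2.34), with Reg4 at 392 against 1627 CPM (-2.05) and the receptor Kit at -1.07. Of 7 colonocyte genes compared, 6 were lower (median -2.35). Of the enteroendocrine hormones, secretin (Sct) stood at 22.6 against 174 CPM (-2.94). The granule gene Chgb (3.09 against 109 CPM) and the hormone gene Pyy (6.00 against 209 CPM) passed the level minimum only through the other cells. Of the genes of the fetal and regenerating epithelium, Ly6a stood at 127 against 421 CPM (-1.73) and Anxa1 at 36.2 against 59.8 CPM (-0.72). Areg (3.72 against 22.7 CPM) and Ly6d (2.92 against 30.4 CPM) passed the level minimum only through the other cells. Of 10 immediate early genes, which respond to stress and handling, 7 were lower with a median of -1.52, including Fos (71.0 against 243 CPM, -1.78) and Dusp1 (-1.82), while Jun (-0.03) and Ier2 (-0.20) were level. With the comparators limited to cells outside clusters of other cell types and shallow clusters, described below, 3 of 9 were lower with a median of -0.89. Hspa1a, counted among the 7, passed the level minimum only through the other cells (4.75 against 15.3 CPM). Antimicrobial genes were mixed: Reg3b was level at 3857 and 3663 CPM (0.07), Reg3g had -0.14, and Retnlb -2.20. Of 6 genes of antigen presentation on MHC class II, 0 passed 2-fold in either direction, with a median of 0.42 (Cd74 at 2258 against 1909 CPM, 0.24). With every cell thinned their median was 0.12 and H2-Aa had -0.09, and within the 6 clusters given below Cd74 had -0.01.

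Markers of other cell types moved with these ratios. The 4 plasma cell markers, all detected in both groups, summed to 725 CPM in the Lgr5-positive cells (per cell 0 to 50091 CPM, median 196) and 3859 CPM in the others (0 to 116015, median 314). The 5 fibroblast markers, all detected, summed to 92.3 CPM (0 to 15004 per cell, median 0) and 344 CPM (0 to 83359, median 0). The 5 macrophage markers summed to 22.1 CPM (0 to 2255 per cell) and 151 CPM (0 to 38922 per cell). The 4 erythroid markers summed to 163 CPM (0 to 114842 per cell) and 99.1 CPM (0 to 138049 per cell). Csf3r of neutrophils and Sox10 of glia were at 0 in the Lgr5-positive cells. With comparators limited to the 3538 cells outside clusters of other cell types and shallow clusters, an alternative added after seeing the data, 351 genes were at least 2-fold lower and 120 higher, against 390 and 140.

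Clustering the Epcam-positive cells without Lgr5, Epcam and the reporter gave 30 clusters, and the Lgr5-positive cells were spread over several. The 6 clusters with at least 30 of them held 455 of the 540, or 84.3%. These were a stem-like cluster (121 cells), 3 cycling-like clusters (93, 62 and 40 cells) and 2 clusters left unnamed (102 and 37 cells). The unnamed cluster with 102 had Dlgap1, Rdh1 and Cps1 as its leading genes and the highest share of cells with an Lgr5 UMI after thinning, 27.1%, against 16.3% in the stem-like cluster. Lgr5 played no part in forming these clusters, but the stem-like name is not independent of it. Lgr5 and GFP-PLUS were among the 4 markers of that class, of which at least 3 were needed. Over all their cells, Lgr5 stood at 68.1 CPM in the unnamed cluster with 102 and 36.9 CPM in the stem-like cluster, and GFP-PLUS at 51.5 and 38.7 CPM. Both markers were thus higher in the unnamed cluster, and its lack of a name is not read as a lack of stem cell markers. By the markers of the classes, 18 cells (3.33%) fell in clusters named for another cell type (plasma, fibroblast, lymphatic endothelial, B or T and NK cells) in place of a crypt cell, and 18 further cells fell in a tuft-like cluster.

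Most differences shrank when the Lgr5-positive cells were compared only with the other cells of the same 6 clusters, a comparison added after seeing the data. It set 455 Lgr5-positive cells against 1268 others, at a median of 29117 and 28027.5 UMIs. Stem cell, goblet and other listed genes were free to form these clusters, so cells of the same clusters are partly matched on them. Part of the shrinkage is therefore set by the choice of comparators, and how much was not tested. Lgr5, Epcam and the reporter were left out of the clustering and are not matched in this way. Of 7777 genes compared, 7 (0.09%) were at least 2-fold higher and 22 (0.283%) lower. The stem cell list had a median of 0.50, with 0 of 15 genes past 2-fold. Aqp4 turned from level to -0.27 (-0.35 to -0.19), and Igfbp4 from -0.29 to 0.35 (0.09 to 0.61). Smoc2 had a log2 ratio of 0.73 (0.65 to 0.81), Axin2 0.67, Ascl2 0.52 and Slc12a2 0.45, each with an interval above 0. GFP-PLUS kept 1.45 (1.32 to 1.59) and Cps1 1.34 (1.2 to 1.47), and Agr3 1.11. Of the 12 genes with the highest ratio, 8 stayed at or past 2-fold, but only GFP-PLUS, Cps1 and Agr3 of these passed the level minimum, Agr3 (13.8 against 6.38 CPM) only through the Lgr5-positive cells. Of the 12 with the lowest ratio, only Car1 did (-2.76), and their median was 0.01. Reg4 (0.03), Zg16 (0.02) and Atoh1 (0.06) were level within these 6 clusters.

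**Figure D3:**
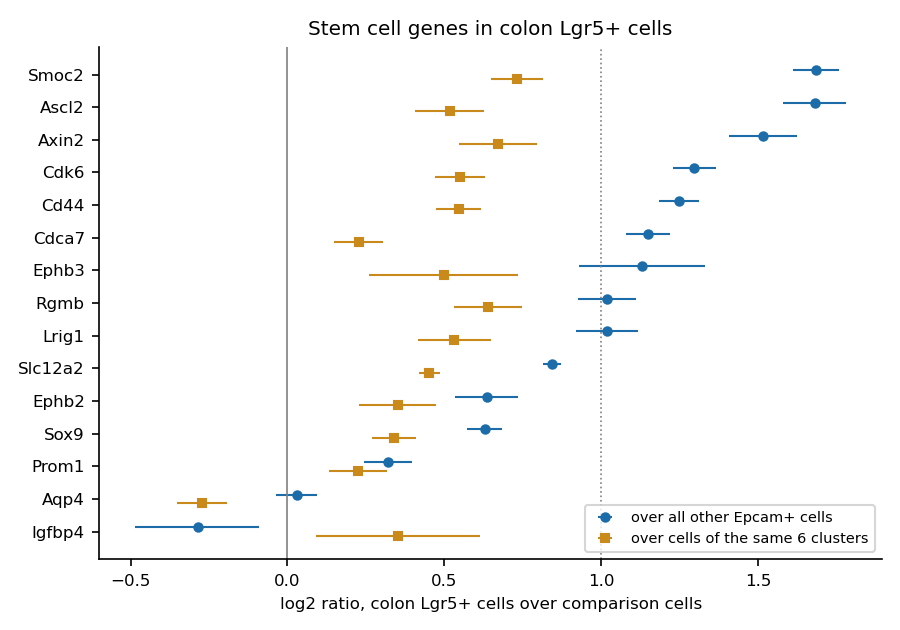
Log2 ratio of CPM (horizontal axis) of the 15 compared stem cell genes in colon Lgr5-positive cells over all other Epcam-positive cells (circles) and over the other cells of the same 6 clusters (squares), with exact 95% intervals for counting error; dotted line, 2-fold. The circles of 9 genes lie at or above 1, and no square does.

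The 18 cells in the tuft-like cluster met the same Lgr5 threshold. That cluster held 96 cells with 45.4 CPM of Lgr5, and 17.9% of its cells held an Lgr5 UMI after thinning, inside the interval of the stem-like cluster (13.2% to 19.8%). The cluster was shallow, with a median of 15222 UMIs per cell. In its 18 Lgr5-positive cells, GFP-PLUS stood at 58.5 CPM against 55.9 CPM in the remaining Lgr5-positive cells. The tuft cell kinase gene Dclk1 stood at 1847 against 1.17 CPM, the taste-pathway channel Trpm5 at 440 against 0.233 CPM and Rgs13 at 2235 against 0.757 CPM. These genes belong to the tuft markers that named the cluster, so their levels describe how it was chosen and are not separate support. In the 18 cells, Smoc2 stood at 43.1 against 130 CPM and the cycling gene Mki67 at 15.4 against 355 CPM, while Sox9 stood at 508 against 178 CPM and Prom1 at 212 against 96.4 CPM. Over all 540 cells, Dclk1 had a ratio of 1.1 to the other Epcam-positive cells and Rgs13 one of 1.15, at 0.98 and 1.06 with the strict cell filter. The tuft genes Sh2d6 and Avil passed the level minimum only through the Lgr5-positive cells, and no count over the tuft genes is given. Within the 6 clusters above, which leave these 18 cells out, Dclk1 had a ratio of -0.74 and Trpm5 one of -0.68. A doublet caller that marks the top-scoring barcodes at 0.8% per 1000 kept barcodes marked 34 of the 540 cells. The share in tuft-like clusters stayed between 2.64% and 3.33% under every alternative run, that one included.

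Levels of regional Hox genes differed between groups of Lgr5-positive colon cells. For this comparison, added after seeing the data, the cells were clustered again without any gene of the lists used here. This gave 28 clusters, of which 6 held at least 30 Lgr5-positive cells and together 454 of the 540 (84.1%). They are called A to F here, in order of Hoxb13, with 68, 105, 109, 92, 42 and 38 Lgr5-positive cells. Hoxb13 stood at 1.95, 3.01, 12.7 and 18.2 CPM in A to D and at 271 and 273 CPM in E and F. The 80 Lgr5-positive cells of E and F were 14.8% of the total. Hoxd13, another Hox gene of the posterior gut, was at or below 0.376 CPM in A to D and at 30.2 and 44.1 CPM in E and F. Cdx2, the intestinal homeobox gene, ran the other way, at 264, 225, 187 and 172 CPM in A to D and 20.7 and 27.5 CPM in E and F. Hoxb6 likewise stood at 30.1 to 36.5 CPM in A to D and at 0.591 and 1.84 CPM in E and F.

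The groups also differed outside the Hox genes. Reg3b stood at 1092 and 1140 CPM in A and B, at 9099 and 7283 CPM in C and D and at 105 and 85.4 CPM in E and F. Cd44 stood at 172 to 208 CPM in A to D and at 52.6 and 46.8 CPM in E and F, and the Wnt target Sp5 at 15.6 to 25.1 CPM in A to D and at 5.32 and 3.67 CPM in E and F. Ly6a, a surface protein of regenerating epithelium, was lowest in A and B (36.8 and 38.8 CPM) and highest in E and F (202 and 181 CPM). Smoc2 lay between 114 and 174 CPM and Ascl2 between 55.0 and 87.3 CPM in all 6. Axin2 varied more, from 31.2 CPM in F to 78.6 CPM in C, and GFP-PLUS ran from 28.5 CPM in F (19.3 to 40.4) to 80.5 CPM in B (70.1 to 92.1). Cycling genes split each pair (A and B, C and D, E and F): Top2a stood at 844, 813 and 795 CPM in A, C and E and at 96.7, 73.3 and 107 CPM in B, D and F. The groups with high Top2a also had deeper cells, with median UMIs of 36840.5, 36506 and 39747 against 24206, 23283.5 and 25820. The labels give no position along the colon and no animal per cell, so position, animal and cell state cannot be told apart here.

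**Figure D4:**
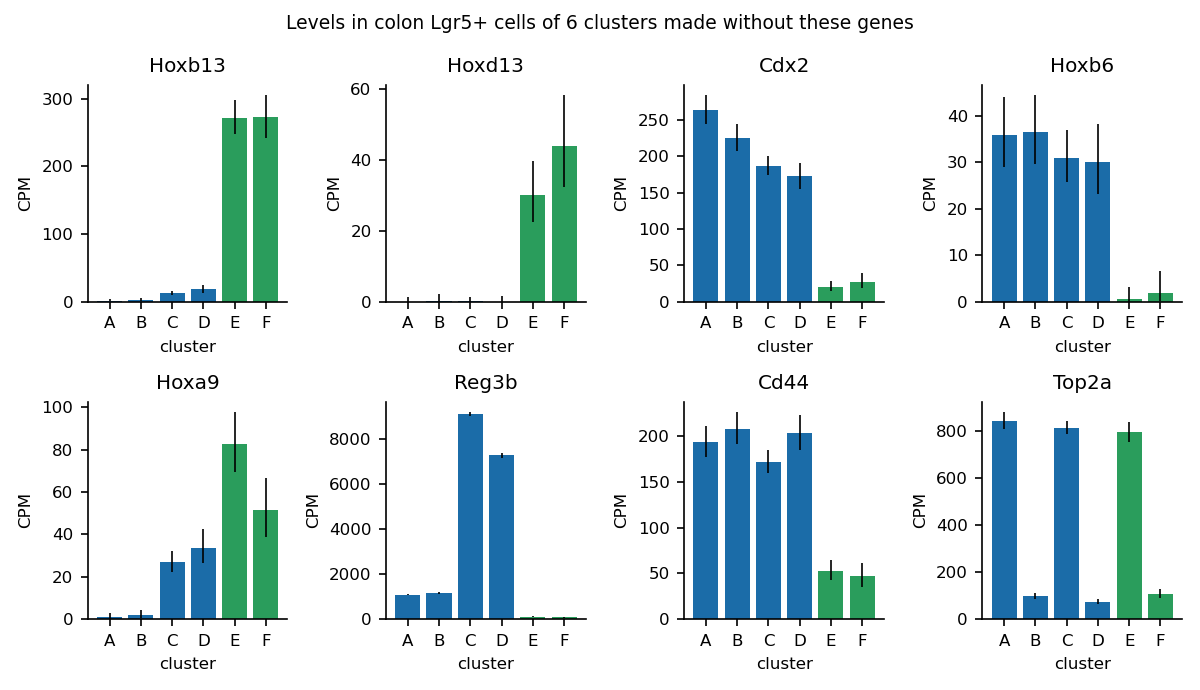
Levels of 8 genes in the Lgr5-positive cells of groups A to F (horizontal axis), which come from clusters made without these genes, as CPM of summed UMIs with bars from 0 and exact 95% Poisson intervals; E and F are in green. Hoxb13 and Hoxd13 are high in E and F, Cdx2, Hoxb6, Reg3b and Cd44 are low there, and Top2a is high in A, C and E.

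Against the Lgr5-positive cells of the small intestine, the colon cells held the posterior Hox genes and lacked Paneth products and Olfm4. Tissue and library cannot be told apart in this comparison. Of 7962 genes, 492 (6.18%) were at least 2-fold higher and 220 (2.76%) lower in the colon cells, with a median log2 ratio of 0.26. The regional genes past 2-fold were under 10 CPM in one tissue and passed the level minimum only through the other, so no count of them is given. Hoxb13 and Hoxa9 were at 0 UMIs in the 213 small intestinal cells and at 62.8 and 26.2 CPM in the colon cells, so that their log2 ratios against a floor of 3 UMIs over the group were 7.13 and 5.87 or higher. Hoxb9 stood at 70.4 against 5.09 CPM (log2 ratio 3.79) and Hoxb6 at 26.7 against 2.25 CPM (3.57). Gata4, the small intestinal transcription factor, gave 0 UMIs in the colon cells, and Gata5 gave 7 (-5.95, -7.29 to -4.87).

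Among the 6 genes with the highest ratios in this comparison, the resistin-like goblet protein gene Retnlb stood at 667 against 1.95 CPM (log2 ratio 8.42), Mptx1 at 370 against 1.2 CPM (8.27) and the carbonic anhydrase Car2 at 215 against 0.899 CPM (7.90). Foxd2os and Wfdc18 rested on 3 UMIs each in the small intestinal cells, with ratios of 8.06 (6.51 to 10.3) and 7.99 (6.44 to 10.3), and Plet1 on 2 UMIs, with an interval of 6.89 to 11.8. Retnlb and Mptx1 were found widely outside their own cells, as given for Mptx1 above. The genes with the lowest ratios were products of Paneth cells, neighbours of stem cells in the small intestine. The defensins Defa24, Defa30, Defa21, Defa22 and Defa29 gave 0 UMIs in the colon cells and 85729, 23436, 10969, 10701 and 3394 CPM in the small intestinal Lgr5-positive cells. Lysozyme (Lyz1) gave 8 UMIs against 15431 CPM (-15.0, -16.3 to -14.1). In the other small intestinal Epcam-positive cells Defa24 stood at 61966 CPM and Lyz1 at 7285 CPM, and free RNA in that library was not separated from these values. All 6 MHC class II genes were at least 2-fold higher in the colon cells, with a median of 1.73 (Cd74 1.67, H2-Aa 2.11). With every cell thinned, Ciita (0.47) and H2-DMa (0.94) were under 2-fold. Of the stem cell genes at 10 CPM or more in both tissues, Cd44 was higher in colon (156 against 68.6 CPM, 1.19), and Axin2 (57.0 against 154 CPM, -1.43) and Igfbp4 (13.6 against 69.4 CPM, -2.35) were lower. Olfm4 (0.457 CPM in colon), Gkn3 (0 UMIs), Msi1 (3.55 CPM) and Tnfrsf19 (3.43 CPM) passed the level minimum only through the small intestinal cells.

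The Visium sections measured the neighbourhood of Lgr5 in tissue that had not been dissociated or sorted. A spot is a small region that holds several cells or parts of cells, and fewer cells of a type and less RNA per cell cannot be told apart in it. Lgr5 was sparse, with 104 and 98 UMIs in the sections, and 94 of 2094 and 89 of 2179 spots with at least 500 UMIs held one. The median depth was alike, at 19200.5 UMIs in spots with Lgr5 against 19341 without in section 1, and 19681 against 19832.5 in section 2. Of 8500 genes compared, 4215 (49.6%) had a log2 ratio above 0 in both sections and 2534 (29.8%) below 0 in both.

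Most stem cell genes were higher in spots with Lgr5 in both sections. Of 15 compared, 13 were above 0 in both and 2 below 0, with a median of 0.91 in each section. Ascl2 stood at 26.9 against 5.35 CPM in section 1 and 21.8 against 6.42 CPM in section 2 (log2 ratios 2.33 and 1.76), and passed the level minimum only through the spots with Lgr5. Smoc2 had 1.46 and 1.22, Axin2 1.36 and 1.5, Ephb3 1.48 and 1.42, and Slc12a2 1.12 and 1.12. Those below 0 were Aqp4 (-0.86 and -0.88) and Prom1 (-0.19 and -0.29). All 10 S phase and all 10 G2/M genes were above 0 in both sections, as were all 8 Notch genes compared, while the Wnt list was split 5 above and 5 below. Cps1, the only 1 of the 12 genes with the highest ratio that reached the level minimum in spots, had 1.78 and 1.70.

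Spots and single cells gave opposite signs for some secretory genes. Reg4 stood at 518 against 173 CPM in spots with and without Lgr5 in section 1 and at 502 against 166 CPM in section 2 (log2 ratios 1.58 and 1.59), whereas in the single cells it had -2.05. Cma1 (1.09 and 1.81) and Pyy (0.43 and 0.62) also lay above 0 in spots and below in cells, although Cma1 was under the level minimum in spots. A spot with an Lgr5 UMI also holds RNA of its other cells. Of the 11 genes with the lowest ratio that could be compared, 8 were below 0 in both sections, among them Zg16 (-1.5 and -1.28) and Car1 (-1.37 and -1.46). Reg3b differed between the duplicates, at 147 against 94.4 CPM in section 1 and 12.9 against 112 CPM in section 2 (0.64 and -3.13), so no direction is given for it.

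**Figure D5:**
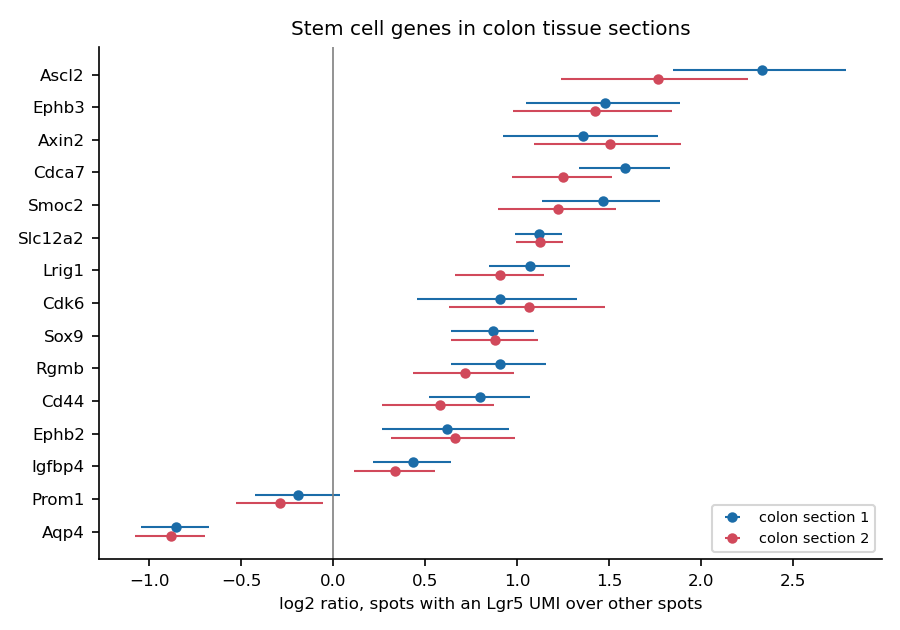
Log2 ratio of CPM (horizontal axis) of the 15 compared stem cell genes in spots with an Lgr5 UMI over other spots, 1 point per section of large intestine, with exact 95% intervals for counting error. The points of 13 genes lie above 0 in both sections, and those of Aqp4 and Prom1 below 0.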

How the data were processed

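The deposited single-cell matrices hold UMI counts per gene and barcode, made by the authors with Cell Ranger 6.0.1, per the file headers, and the Visium matrices hold UMI counts per spot from Space Ranger 1.2.1, per the file headers. The genome build was mm10, per the submitters' processing notes, and the annotation release is not given in the sources used here. Summing these counts, CPM, ratios, thinning and clusters were computed here with Python 3.11.15, NumPy 2.4.6, SciPy 1.17.1, pandas 2.3.3 and scanpy 1.11.5. Ratios have exact 95% intervals for a ratio of Poisson counts and shares have Clopper-Pearson intervals, and both cover counting error only. The script was tested on simulated counts. A group with 0 UMIs was set to 3 UMIs for a ratio, which is then a bound.

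Clusters used 2000 variable genes without Lgr5, Epcam, the reporter features, mitochondrial, ribosomal protein and sex genes, 30 components, 15 neighbours and Leiden resolution 1. A cluster was named where at least 3 markers of a class were counted for it and no other class led its top 10 genes. Detection of a marker does not by itself account for the names. The unnamed cluster with 102 Lgr5-positive cells was recorded with 0 class markers, although Lgr5 stood there at 68.1 CPM and GFP-PLUS at 51.5 CPM. Doublets were left out only in an alternative, where Scrublet scores marked 306 colon barcodes.

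Genes named by size were the 12 of highest and the 12 of lowest ratio (6 and 6 between tissues), given that the group with the higher level held 50 or more UMIs of the gene and that 10% or more of its cells had one, without Lgr5, Epcam, mitochondrial, ribosomal protein, sex, haemoglobin and immunoglobulin genes and unnamed gene models. The cells, the rule, the gene lists and the alternatives were chosen with earlier results of these data known. Organoid libraries were not used here. Some genes of the lists are counted but not reported here by name. The lists of lymphatic and blood endothelial, smooth muscle, B, T and NK, neutrophil and glial markers summed to 20.8, 5.32, 5.20, 5.15, 0.801, 0.172 and 1.20 CPM in the Lgr5-positive colon cells and to 45.8, 22.1, 73.1, 36.3, 5.44, 0.234 and 1.33 CPM in the other Epcam-positive cells.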

Additional observations from a re-analysis of the deposited data

Results flagged for a closer look

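A second reporter feature of the reference, GFP-MINUS, was used in no comparison. It gave 5 UMIs in the colon Lgr5-positive cells, 1 in each of 5 of the 540 cells (0.926%, exact 95% interval 0.301% to 2.15%). It also gave 8 UMIs in 8 of the 4754 other Epcam-positive cells (0.168%) and was found in 0 of 258 Ptprc-positive cells without Epcam, which allows a share of up to 1.16% by the limit of 3 counts. What sequence this feature stands for is not given in the sources used here.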

How the results depend on the processing

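The counts of genes past 2-fold moved with the choices. Counts and shares were labelled only as the same or moved, so a reversal could not be recorded for them. Genes at least 2-fold higher than in other Epcam-positive cells numbered 140 in the report. They numbered 295 with CPM taken without mitochondrial and ribosomal protein genes (which shifts the median log2 ratio of all genes from 0.13 to 0.24), 228 against comparators with no Lgr5 UMI, 258 with every cell thinned, 589 with no minimum CPM and 7 within the 6 clusters. The 390 lower genes became 2315 with no minimum CPM, which tests more genes, and 22 within the 6 clusters. Between tissues, the 492 higher genes became 788 without mitochondrial and ribosomal protein genes and 1416 with no minimum CPM, and the 220 lower genes became 508 with thinning and 702 with no minimum CPM. The thinned share of cells with GFP-PLUS, 25.7%, was 19.0% with an Lgr5 minimum of 1 and 68.3% without thinning. The share in cycling-like clusters, 38.7%, was 29.4% at Leiden resolution 0.5, 43.1% with an Lgr5 minimum of 3 and 33.2% with the strict cell filter (at least 1000 genes, at most 10% mitochondrial UMIs). With spots thinned to 2000 UMIs, 21 of 4250 spots kept an Lgr5 UMI, and 4 of the 6 stem cell genes with a value stayed above 0, against 13 of 15. Except for the steps by construction, the cause was not tested.

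Of the log2 ratios past 2-fold, those that changed sign were Aqp8 (0.15) and Ceacam20 (0.053) under the strict filter. Within the 6 clusters, those that went from lower to higher were Atf3 (0.54), Fosb (0.43), Slpi (0.40), Fer1l6 (0.12), Sval1 (0.10), Cma1 (0.083), Atoh1 (0.061), Clps (0.026), Hspa1a (0.026), Reg4 (0.025), Spink4 (0.022), Zg16 (0.019) and Pyy (0.0036). Those that went from higher to lower were the tuft genes Dclk1 (-0.74), Trpm5 (-0.68), Sh2d6 (-0.12) and Avil (-0.11). Ratios under 2-fold also changed sign there, among them Car4 (-0.43 to 0.82), Jun (-0.03 to 0.58), Igfbp4 (-0.29 to 0.35), Reg3b (0.07 to -0.72), Aqp4 (0.03 to -0.27) and Ccnd2 (0.04 to -0.17), and in thinned spots Igfbp4 (to -0.49) and Prom1 (to 0.23). Of the other single genes, 1047 values over all settings moved by less than their interval and 741 by more, without a change of sign in a called value. No paired analysis was possible because the results come from no test and each tissue has 1 single-cell library. The sections, which share numbers across tissues, are technical duplicates. Lgr5 at 2 to 13 UMIs per cell limits the sorting of cells by this gene, and cells with 0 or 1 UMI cannot be called negative at this depth.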
